A study of Mus musculus with 8 samples.

Results

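Methylation of the 4 Hox gene clusters was read in mouse liver by reduced representation bisulfite sequencing (RRBS). The 38 member genes were Hoxa2 to Hoxa7, Hoxa9 to Hoxa11 and Hoxa13, Hoxb1 to Hoxb9 and Hoxb13, Hoxc4 to Hoxc6 and Hoxc8 to Hoxc13, and Hoxd1, Hoxd3, Hoxd4 and Hoxd8 to Hoxd13. They were chosen by name, and a CG belonged to a member if it lay in the gene body or within 2 kb on either side (NCBIM37, which is mm9, with GENCODE M1 genes). A CG was used if it had at least 10 reads in each of the 8 mice. This left 407 Hox CGs of 176951 in the whole genome, each counted on its own strand. The mice were 1 female and 1 male each of C57BL/6J (B6), DBA/2J (DBA), BXD F1 (B6 mother, DBA father) and DXB F1 (DBA mother, B6 father). All were 16 weeks old and had been fasted for 16 h. With 1 animal for each strain and sex, a spread or p-value below measures variation among these mice, with strain, cross and sex as the differences between them. The level of a CG is the percentage of its reads that kept the cytosine after bisulfite, over all cells of the liver, so that a few fully methylated cells and a low level in every cell cannot be told apart.

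Hox genes encode homeodomain transcription factors that set the position of structures along the body axis. Within each cluster the genes stand in the order in which they act, from anterior (low paralog numbers, hindbrain and neck) to posterior (high numbers, tail, limbs and genitals), and transcription runs from the posterior towards the anterior end. In cells that do not use them the clusters are a textbook case of silencing by polycomb proteins and histone H3 lysine 27 trimethylation, with CG-rich DNA that largely lacks methylation.

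The 4 clusters are CG-rich over their whole length. HoxA (chr6:52110350-52212874) held 29.9 CG dyads per kb, HoxD (chr2:74504367-74605200) 28.1, HoxC (chr15:102749534-102869274) 21.2 and HoxB (chr11:96053630-96231570) 20.8, against 8.48 over these 4 chromosomes. The following 4 windows of 150 bases show the range of levels found inside them. They are printed 5′ to 3′ on the plus strand of NCBIM37, with the CGs that were measured in capitals and all other bases in lower case. Levels are means of the 3 libraries with the longest reads (BXD male, B6 female and DBA female). The first is the longest methylated run of the clusters, in the coding exon of Hoxa5 (chr6:52152675-52152824, 6 of its 8 CGs measured). The second is the next longest, in an intron of Hoxb3 (chr11:96187996-96188145, 6 of 8). The third holds a methylated pair upstream of Hoxb2 (chr11:96211359-96211508, 4 of 6). The fourth is the window with the most measured CGs that all lay under 5%, past the end of Hoxd3 on the side of Hoxd1 (chr2:74587681-74587830, 14 of 15).
Hoxa5 exon: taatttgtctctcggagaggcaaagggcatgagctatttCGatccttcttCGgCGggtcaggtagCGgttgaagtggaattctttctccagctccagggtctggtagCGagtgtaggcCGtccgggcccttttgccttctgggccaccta
Hoxb3 intron: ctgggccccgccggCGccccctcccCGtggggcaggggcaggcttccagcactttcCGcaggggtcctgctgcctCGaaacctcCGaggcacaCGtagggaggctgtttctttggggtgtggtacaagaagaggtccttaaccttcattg
upstream of Hoxb2: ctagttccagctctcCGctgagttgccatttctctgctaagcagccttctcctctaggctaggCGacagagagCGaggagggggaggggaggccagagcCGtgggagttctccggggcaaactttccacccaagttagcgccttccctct
beside Hoxd3: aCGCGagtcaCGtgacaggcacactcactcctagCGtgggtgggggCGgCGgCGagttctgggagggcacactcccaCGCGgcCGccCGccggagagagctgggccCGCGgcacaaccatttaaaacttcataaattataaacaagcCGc
In the Hoxa5 window the 6 CGs ran from 14.5 to 78.3%, and in the Hoxb3 window from 18.3 to 39.7%. In the window upstream of Hoxb2 levels ran from 10.9 to 74.5%, the highest at a CG (position 96211433) with 17 to 33 reads in these libraries. It was at 42.5% of 113 reads in the BXD female, 48% of 75 in the DXB female and 32.3% of 65 in the DXB male. In the window beside Hoxd3 the 14 CGs ran from 0 to 4.24%.

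The libraries differed in depth and in read length, and both bear on which Hox CGs were seen. Reads at cytosines summed to between 200744653 (DBA male) and 845527087 (BXD male), and the median coverage of the 407 Hox CGs ran from 33 reads in the DBA female to 161 in the BXD male. Reads reached 100 bases from the MspI cut in the BXD male and in both female parents, 76 in both male parents, and 50 in the other 3 libraries. Of the Hox CGs 3120 had 10 reads in at least 1 mouse, 1625 had them in each of the 3 libraries with 100-base reads and 407 in all 8. The parts of depth and of read length in this loss were not tested. Of the promoters of hepatocyte markers, Apob (24.9%), Hnf4a (26.5%) and Fgb (20.04%) were covered, and those of Alb and 10 further genes of that list were not, so the label liver was checked on few genes. The promoter of the endothelial receptor gene Kdr was at 8.31% and that of the bile duct regulator Sox9 at 2.74%.

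The Hox clusters were little methylated in every mouse. The mean over the 407 CGs was 8.40% ± 1.53 (SD, n = 8), against 43.4% ± 0.488 over all 176951 CGs. By mouse it was 7.56% in the B6 female, 10.4% in the B6 male, 7.57% in the DBA female, 10.8% in the DBA male, 8.88% in the BXD female, 6.51% in the BXD male, 8.03% in the DXB female and 7.41% in the DXB male. By its SNPs the library labelled B6 male was not B6 within HoxA, where all 859 of its sorted calls lay on DBA reads. The male parents were the highest and did not overlap with the other 6 mice. HoxC had the highest cluster mean, 9.51% ± 2.47, followed by HoxA (8.68% ± 1.52), HoxD (8.25% ± 1.67) and HoxB (7.59% ± 1.07, each SD, n = 8). Neighbours in this order differed by less than the SD among mice. The means rest on 116 CGs in HoxA, 122 in HoxB, 74 in HoxC and 95 in HoxD.

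Much of the signal and of its spread came from a single kind of position. MspI cuts between the cytosines of CCGG, so the CG of the cut site is the first base of a read. The 128 cut-site CGs of the clusters averaged 17.1% ± 5.01 (SD, n = 8) and the 279 CGs inside fragments 4.41% ± 0.622. At cut sites the B6 male (25.6%) and the DBA male (23.8%) stood above the other 6 mice (12.3 to 18.1%). Inside fragments the B6 male was the lowest of the 8 (3.48%) and the DBA female the highest (5.12%). The step was not limited to Hox genes. Over the 18874 cut-site CGs of the genome with a mean under 20%, the B6 male had 20.1%, the DBA male 19.2% and the other mice 7.23 to 12.9%. All 8 mice were under 3% at every distance from the cut inside fragments at such CGs. The cause of the step at cut sites was not tested. Results are also given without these CGs, an alternative chosen after seeing the data, as was the use of the 3 libraries with 100-base reads alone. Without cut sites the cluster means moved together, to 4.66% ± 0.899 in HoxA, 4.44% ± 0.957 in HoxC, 4.36% ± 0.675 in HoxB and 4.15% ± 0.806 in HoxD.

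**Figure D1:**
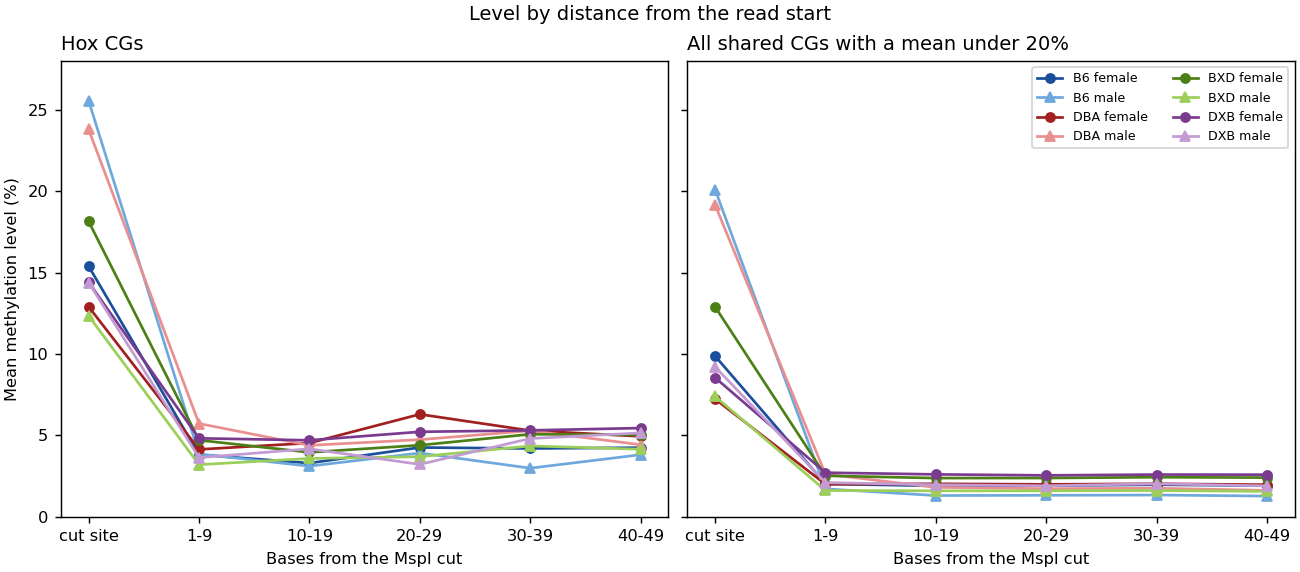
Mean methylation level (%) by distance from the MspI cut in bases, for Hox CGs (left) and for all shared CGs with a mean under 20% (right), with a line for each of the 8 mice (circles female, triangles male). Hox levels drop from 12.3 to 25.6% at the cut site to under 7% at every distance inside fragments, and the 2 male parents are highest at the cut site in both panels.

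Inside fragments the 3 libraries with 100-base reads gave the widest view, with 1307 Hox CGs. Of these 878 (67.2%) were under 5%, 1133 (86.7%) under 10%, 54 at 20% or above and 3 at 50% or above. Their mean was 5.06%, against 36.4% over the 529838 CGs of the genome measured in the same way, of which 39.3% were at 50% or above. Of those 529838 CGs 48.5% were under 5% and 51.9% under 10%. The median CG was not lower in the clusters. Among the CGs inside fragments shared by all 8 mice it was at 2.50% in Hox genes and 2.22% in the whole genome. In the clusters a low mean was found in each part of the genes. Hox CGs averaged 5.25% in promoters, 4.62% in UTRs, 4.62% in coding exons, 6.09% in introns and 5.22% between genes. Other protein-coding genes averaged 4.20% in promoters and 8.80% in UTRs, but 34.9% in coding exons, 55.4% in introns and 37.6% between genes. The median CG of promoters was at 2.56% in the clusters and 0.309% elsewhere, and that of UTRs at 2.00 and 0.333%. In the other parts the median was lower in the clusters, such as 2.89 and 4.18% in coding exons.

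The contrast was widest where CGs were sparse. Where 1 to 4 CG dyads stood within 200 bases, Hox CGs averaged 10.7% (49 CGs) and CGs of other protein-coding genes 71.5%. At 5 to 9 dyads the means were 7.20% and 56.97%, at 10 to 14 they were 4.84% and 21.4%, and at 15 to 19 they were 4.02% and 4.47%. At 20 or more dyads the order was turned, with 2.54% in the clusters and 1.44% elsewhere. Each of these orders of means held in each of the 3 libraries except that at 15 to 19 dyads, where the DBA female had 4.85% in the clusters and 4.75% elsewhere. The median CG was lower in the clusters only below 10 dyads. It was at 2.90% in the clusters and 1.19% elsewhere at 10 to 14 dyads, and at 2.45 and 0.353% at 15 to 19. At 10 to 14 dyads 21.3% of the CGs elsewhere were at 50% or above. No test was made of these differences, since the genes were chosen with earlier results known.

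**Figure D2:**
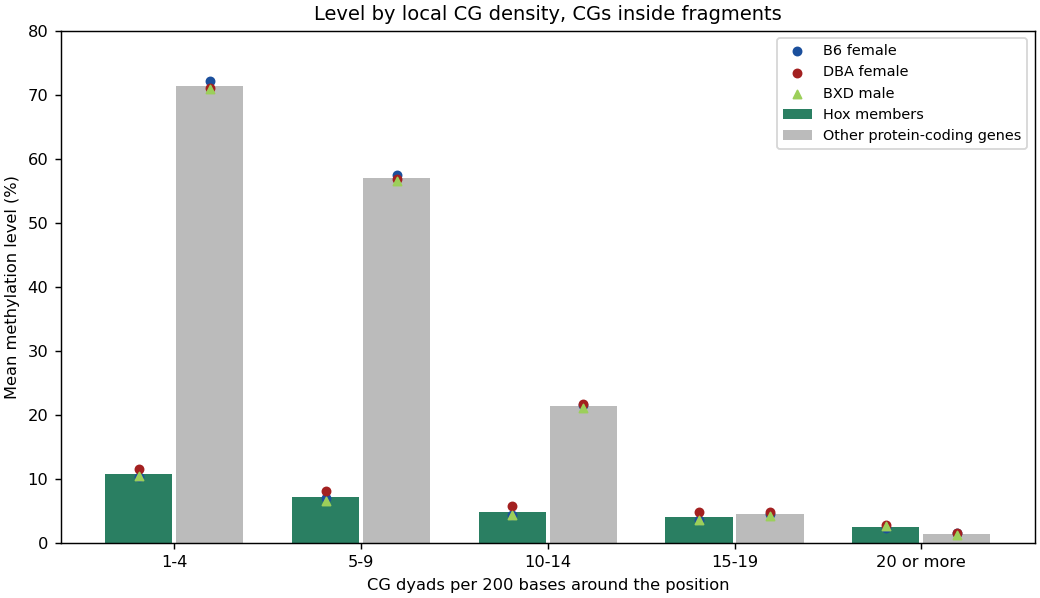
Mean methylation level (%) of CGs inside fragments by the number of CG dyads within 200 bases, for Hox members (green bars) and other protein-coding genes (grey bars), with a point for each of the 3 libraries with 100-base reads. The gap is widest at 1 to 4 dyads (10.7 and 71.5%) and is gone at 15 to 19 dyads (4.02 and 4.47%).

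Over all shared CGs the mean level of posterior CGs was below that of anterior CGs in each cluster. In this set the difference exceeded its SD among mice in HoxA, HoxC and HoxD, and it was widest in HoxD. Each CG was assigned to the member that holds it or lies nearest, and CGs of paralog groups 9 to 13 were set against those of groups 1 to 8. In HoxD the anterior CGs averaged 11.1% ± 2.11 and the posterior CGs 3.85% ± 1.14 (SD, n = 8), a difference of -7.22 ± 1.35 points that was negative in 8 of 8 mice (-8.66 to -5.25). In HoxC the difference was -3.33 ± 3.06 (7 of 8 mice), in HoxA -1.49 ± 0.972 (7 of 8) and in HoxB -0.519 ± 1.52 (6 of 8). The last of these was smaller than its SD. The B6 male and DBA male were the exceptions in HoxB (1.71 and 1.86), the B6 male in HoxC (0.754) and the BXD male in HoxA (0.283).

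Inside fragments the difference was negative in 8 of 8 mice in each cluster. It was -4.64 ± 2.14 in HoxC, -4.11 ± 1.18 in HoxD, -1.74 ± 0.849 in HoxB and -1.66 ± 1.07 in HoxA (SD, n = 8). Over the more numerous CGs of the 3 libraries with 100-base reads it was -4.04 ± 0.737 in HoxA, -1.83 ± 0.549 in HoxB, -1.74 ± 0.957 in HoxD and -1.06 ± 0.80 in HoxC (SD, n = 3, negative in 3 of 3). The order of the clusters thus changed with the CGs that were covered, and the sign of the mean difference did not among these 3 sets. Inside fragments the median CG was at 2.46% posterior and 2.44% anterior in HoxB, 1.79 and 2.27% in HoxD, 3.17 and 4.79% in HoxA and 1.99 and 4.397% in HoxC. The libraries with 100-base reads had it at 2.52 and 2.40% in HoxB, 2.29 and 3.30% in HoxD, 3.33 and 5.74% in HoxA and 2.37 and 3.78% in HoxC. Across genes inside fragments, Spearman's rho between position in the cluster and level was -0.886 in HoxD (6 genes), -0.80 in HoxC (4 genes), 0.179 in HoxA and 0.143 in HoxB (7 genes each). In the libraries with 100-base reads it was -0.321 in HoxD (7 genes), -0.333 in HoxC (8), -0.709 in HoxA (10) and -0.667 in HoxB (9), so neither the order of the clusters nor the sign in HoxA and HoxB held across both sets. For these values each CG counted only for the member that holds it or lies nearest. The genes are few and come from the same livers, so the values are descriptions. With a minimum of 20 reads the sign turned in HoxA (0.745) and HoxB (1.48), and with reads pooled over CGs in HoxB (0.699). CG density moved with the difference in HoxD, where anterior CGs had a mean of 10.6 dyads within 200 bases and posterior CGs 23.1, and its part was not tested. In HoxA the densities were close (12.4 and 12.9), in HoxC as well (8.80 and 8.67, but 10.2 and 15.1 in the libraries with 100-base reads), and in HoxB the anterior CGs were the denser (15.9 and 12.9).

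**Figure D3:**
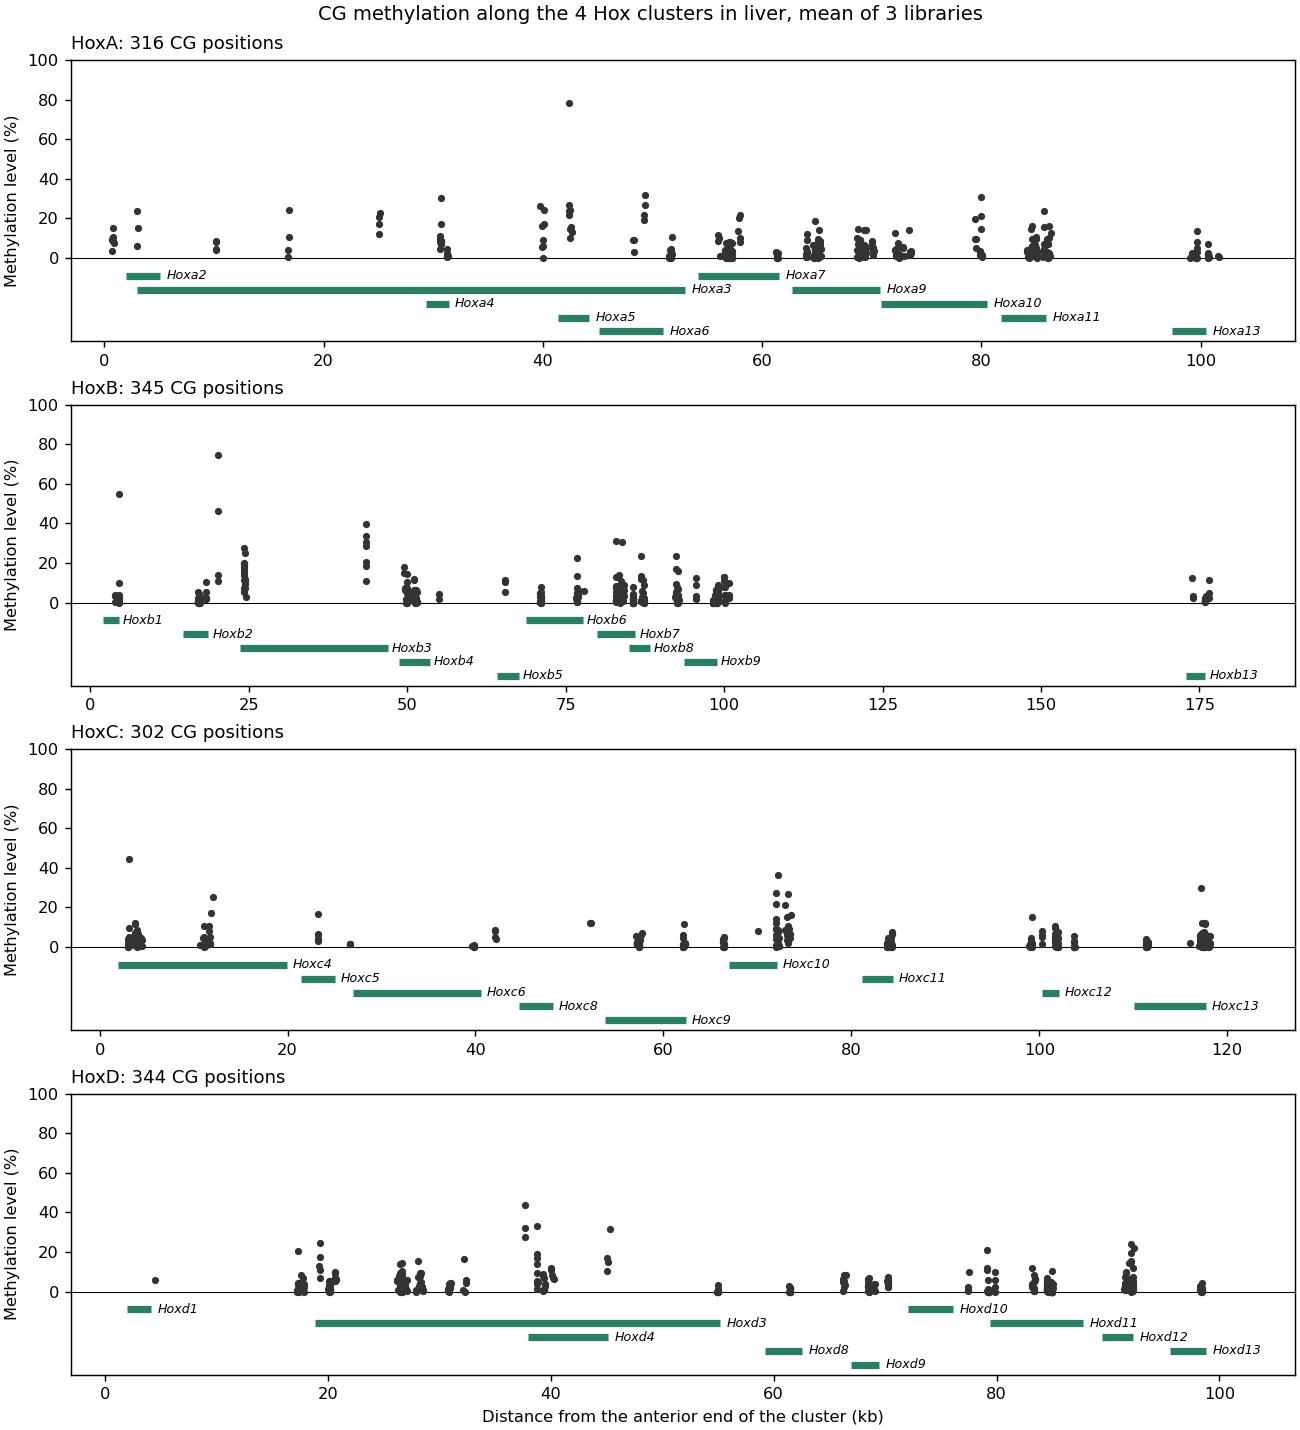
Methylation level (%) of each CG inside fragments, mean of the 3 libraries with 100-base reads, against distance in kb from the anterior end of each cluster, with gene bodies as green bars. Most points lie under 10%, and the highest stand at Hoxa5 (78.3%) and upstream of Hoxb2 (74.5%).

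Of the 38 members 32 held at least 1 CG shared by all mice, 28 held 5 or more, and 26 held 5 or more inside fragments. Hoxb5, Hoxc6, Hoxc13 and Hoxd12 had 2 to 4, and Hoxa5, Hoxc5, Hoxc8, Hoxc11, Hoxd1 and Hoxd10 had none. Windows of neighbours overlap, with 77 CGs in more than 1 window. The annotated body of Hoxa3 (chr6:52113358-52163338) spans Hoxa4, Hoxa5 and Hoxa6, and that of Hoxd3 (chr2:74549986-74586331) spans Hoxd4, so members are not independent of each other.

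Over all shared CGs the anterior genes Hoxa2, Hoxa4 and Hoxa3 were the highest of HoxA. Hoxa2, which patterns the hindbrain and the second branchial arch, averaged 13.8% ± 4.09 (SD, n = 8, 7 CGs). It was the member of the cluster that varied most, from 6.61% in the DXB male to 18.0% in the DBA male. It had 7.20% ± 3.27 over its 4 CGs inside fragments and 10.9% over 10 CGs in the libraries with 100-base reads. Hoxa4, which acts in the neck vertebrae, had 11.9% ± 3.26 over 8 CGs and 11.6% ± 3.83 inside fragments (6 CGs), with 11.9% in the B6 female, 11.2% in the library labelled B6 male, 18.8% in the DBA female, 14.5% in the DBA male, 12.4% in the BXD female, 8.89% in the BXD male, 6.64% in the DXB female and 8.61% in the DXB male. The mice labelled DBA were the highest there, and the library labelled B6 male, with DBA SNPs in HoxA, was below the B6 female. Over 16 CGs in the libraries with 100-base reads Hoxa4 had 7.71% ± 1.56 (SD, n = 3). Hoxa3, needed for the thymus and parathyroid, had 10.8% ± 2.77 (24 CGs) and 7.14% ± 1.81 inside fragments. Over the 7 of these that lie nearest to Hoxa3 itself the mean was 3.20% ± 1.72. In the libraries with 100-base reads these means were 12.5% (63 CGs) and 9.64% (28 CGs nearest to Hoxa3). The lowest over all shared CGs were Hoxa6 (6.01% ± 1.97), Hoxa7 (6.43% ± 1.94) and Hoxa13 (6.80% ± 1.77), the gene of the hand and foot plate and the genital tubercle. Inside fragments these came to 2.70, 3.18 and 4.32%. In the libraries with 100-base reads Hoxa7 and Hoxa13 had 4.17 and 2.50%, but Hoxa6 had 9.84% (15 CGs), above Hoxa9, Hoxa10 and Hoxa11. Hoxa9, Hoxa10 and Hoxa11 lay between, at 7.57 to 8.21%.

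Hoxa5, which acts in the lung and at the border of neck and thorax, had no shared CG but 12 to 48 CGs in each mouse by itself. Its level was 21.4% in the B6 female, 15.1% in the library labelled B6 male, 18.6% in the DBA female, 24.97% in the DBA male, 18.9% in the BXD female, 16.8% in the BXD male, 15.7% in the DXB female and 16.2% in the DXB male. No mouse was under 15%. In the 3 libraries with 100-base reads it was the highest member inside fragments (19.7%, 17 CGs). Its exon holds the run printed above, where 5 CGs within chr6:52152715-52152783 averaged 35.6% in the DBA female, 32.6% in the B6 female and 37.1% in the BXD male. The CG at position 52152741 was at 71.3% of 94 reads in the B6 female, 77.8% of 167 in the DBA female, 85.7% of 14 in the BXD male and 88.0% of 50 in the library labelled B6 male. Its neighbours on either side in the printed window were under 33% in each of the 3 libraries.

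In HoxB the extremes were neighbours. Hoxb1, active in the fourth rhombomere of the hindbrain, had 22.9% ± 4.25 over 6 CGs, from 18.5% in the BXD male to 30.2% in the B6 male, and was the most variable member of the cluster. The higher of its 2 CGs inside fragments lay in its UTR, 13 bases after the start (chromosome 11, position 96227079). It was at 46.3% in the B6 female, 35.7% in the B6 male, 77.8% in the DBA female (18 reads), 42.9% in the DBA male, 51.6% in the BXD female, 40.1% in the BXD male, 50% in the DXB female and 34.5% in the DXB male. With 10 Hoxb1 CGs in the libraries with 100-base reads the mean of the gene was 8.03%. Hoxb2, which acts in the same rhombomere, was the lowest member of all clusters over all CGs, at 2.47% ± 0.646 (15 CGs, 1.65 to 3.28%). Over 40 CGs in the libraries with 100-base reads it had 5.14%.

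Hoxb3, a regulator of the hindbrain and pharyngeal arches, had 14.01% ± 2.85 (9 CGs) and 10.9% ± 3.65 inside fragments, from 6.91% in the B6 male to 18.2% in the DXB female. In the libraries with 100-base reads it came next to Hoxa5 (17.7%, 24 CGs). The 4 CGs of the printed run at chr11:96188052-96188089 averaged 33.9% in the DBA female, 35.7% in the B6 female and 30% in the BXD male, with 87 to 120 reads each. Hoxb4, known for expanding blood stem cells, and Hoxb6 were low, at 4.74% ± 0.84 and 3.75% ± 1.31. Hoxb13, the gene of the prostate and tail, was the third highest over all CGs (8.83% ± 4.02) but had 2.92% ± 0.93 inside fragments, where its B6 male and DBA male values went from 14.1 and 15.9% to 2.96 and 4.97%. Hoxb7, Hoxb8 and Hoxb9 had 6.40 to 8.68%.

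In HoxC 4 members held at least 5 shared CGs. Of these Hoxc4, the most anterior, was the highest at 11.6% ± 2.93 (17 CGs) and 8.06% ± 1.97 inside fragments (5.82 to 11.2%). A CG in its coding exon (chromosome 15, position 102866163) averaged 42.8% ± 11.8, with 36.1% in the B6 female, 38.4% in the B6 male, 66.0% in the DBA female, 53.8% in the DBA male, 43.6% in the BXD female, 30.5% in the BXD male, 33.3% in the DXB female and 40.4% in the DXB male, over 52 to 112 reads. The highest 2 were the DBA mice. Hoxc10, a gene of lumbar segments and hindlimb motor neurons, had 10.5% ± 2.80, Hoxc12 9.20% ± 3.21 and Hoxc9, which sets thoracic identity, 7.60% ± 2.79. Inside fragments these were 4.08, 2.32 and 3.53%. In the libraries with 100-base reads Hoxc10 was the highest of HoxC (7.26%, 47 CGs), above Hoxc4 (5.22%, 57 CGs). Hoxc12 varied most among mice over all CGs, with 14.6% in the B6 male and 13.7% in the DBA male against 6.31 to 8.99% in the other 6 mice.

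HoxD had the steepest order over all shared CGs. Hoxd4, which acts in the hindbrain and the upper neck vertebrae, was the highest of the 26 members with 5 shared CGs inside fragments. There it had 18.3% in the B6 female, 11.6% in the B6 male, 16.7% in the DBA female, 15.1% in the DBA male, 14.4% in the BXD female, 15.2% in the BXD male, 13.7% in the DXB female and 11.7% in the DXB male, a mean of 14.6% ± 2.30 (SD, n = 8, 7 CGs). No mouse was under 11%. Over the 5 CGs nearest to Hoxd4 itself the mean was 10.07% ± 2.52, below Hoxa4 and Hoxb3, and over 30 CGs in the libraries with 100-base reads it was 12.2%, below Hoxa5 (19.7%) and Hoxb3 (17.7%). Its CGs are sparse, with a mean of 4 dyads within 200 bases. Over all 15 CGs the mean was 23.0% ± 3.19, which was the largest spread in the cluster. Hoxd3, its anterior neighbour, had 12.03% ± 2.18 (50 CGs) and 6.85% ± 1.54 inside fragments, with Hoxd4 CGs among them.

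The genes posterior to Hoxd4 were low over the shared CGs. Hoxd8 had 5.04% ± 2.69, Hoxd9 4.19% ± 2.22, Hoxd11, a gene of the forearm, 3.80% ± 1.34 and Hoxd13, the gene of the digits, 3.99% ± 2.53. Inside fragments Hoxd13 was the lowest of the 26 members, at 0.755% ± 0.491, with 0.325% in the B6 female, 0.273% in the B6 male, 1.25% in the DBA female, 0.981% in the DBA male, 0.304% in the BXD female, 1.61% in the BXD male, 0.697% in the DXB female and 0.595% in the DXB male. The ranges of Hoxd4 and Hoxd13 were far apart. Hoxd11 (2.13%), Hoxd8 (2.57%) and Hoxd9 (2.88%) lay near Hoxd13, and their ranges overlapped with each other. Over the CGs of the libraries with 100-base reads Hoxd12 had 6.46% (35 CGs), above Hoxd3 (5.60%), and Hoxd8 (0.951%, 10 CGs) was below Hoxd13 (1.10%, 14 CGs).

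Members without a shared CG were low too, with the exception of Hoxa5 described above. Levels over the CGs of each mouse by itself ran from 4.17 to 13.2% in Hoxc5, 1.40 to 6.70% in Hoxc8, 2.33 to 5.16% in Hoxc11, 0.806 to 4.49% in Hoxd1 and 0 to 5.44% in Hoxd10. These are not the same CGs in each mouse, so the mice were not compared.

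**Figure D4:**
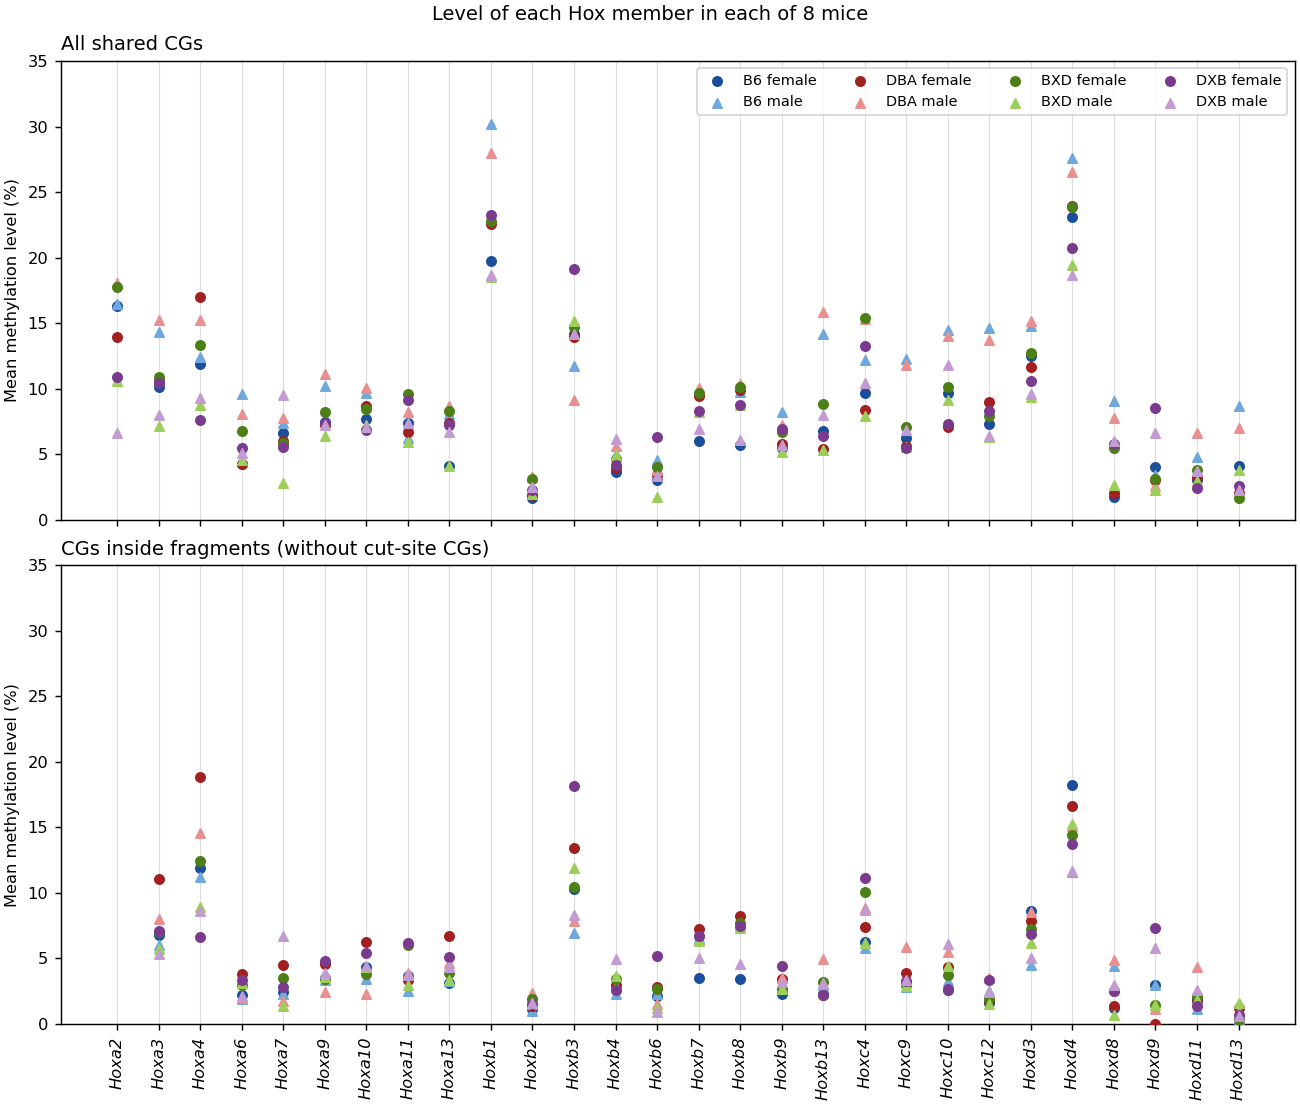
Mean methylation level (%) of each member with at least 5 shared CGs in each of the 8 mice (circles female, triangles male), over all shared CGs (top) and over CGs inside fragments (bottom). Hoxb1 and Hoxd4 lead in the top panel at about 23%, and Hoxd4, Hoxa4 and Hoxb3 lead in the bottom panel, where most members lie under 5%.

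Methylation rose above this low ground in short stretches. Among the 1307 CG positions inside fragments, counted by strand, there were 8 runs of at least 2 neighbouring positions at 20% or above. Gaps within a run were at most 100 bases. Beside the runs of Hoxa5, Hoxb3 and Hoxb2 printed above there was a run in an intron of Hoxd3 just past the end of Hoxd4 (chr2:74567493-74567516). It held 3 positions, 2 of them the strands of 1 CG. Its mean was 34.4%, with 44.4% in the DBA female, 29.8% in the B6 female and 29.0% in the BXD male. The pair upstream of Hoxb2 (chr11:96211423-96211433) had the highest mean of any run, 60.5%, with 70.6, 54.8 and 56.1% in the same order and 17 to 33 reads. Its CGs were at 65 and 85% of 20 reads in the library labelled B6 male, and at 31.8 to 48% in the BXD female and both DXB mice, which had 62 to 113 reads. Pairs also stood in the coding exon of Hoxb3 (24.0%), the coding exon of Hoxc10 (24.5%), the promoter of Hoxa6 (29.5%) and the UTR of Hoxa10 (26.2%). The pairs of the Hoxb3 exon, of Hoxc10 and of Hoxa6 were each the 2 strands of 1 CG. Of the 8 runs, those on the strands of 1 CG included, 6 belonged to paralog groups 2 to 6 and 2 to group 10. These counts were not set against the number of CGs measured in each group. Where both strands of a CG inside fragments were measured in all mice (97 dyads), they differed by a median of 2.45 points, and 1 dyad differed by more than 20. Methylation outside CG in the clusters, which sets the scale of unconverted cytosines and reading errors, was 0.184% in the B6 male to 1.003% in the DXB female.

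The spread among mice at Hox CGs was near that of all CGs. Inside fragments it was above that of all CGs with low levels, and at cut sites close to it. The median SD of a CG over the 8 mice was 3.39 points, of which counting reads would give 2.66, and over all CGs it was 3.50 and 2.89. Inside fragments the median SD was 2.19 (counting 1.88), against 2.07 (1.80) over all CGs inside fragments. Over all CGs with a mean under 20% the median SD was 1.51 (counting 1.28), and 0.987 (0.957) inside fragments. At the cut sites of the clusters it was 7.64 (4.35), against 7.48 (3.94) at all cut sites under 20%, and without both male parents 4.69 (4.12). Of the 44 Hox CGs with an SD above 10 points 38 were cut sites.

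The 10 most variable CGs lay in Hoxa2, Hoxa3 (2 CGs), Hoxa7, Hoxb1 (2), Hoxc4, Hoxc9, Hoxc12 and Hoxd3. Of these 9 were cut sites, and 6 of the 10 were highest in a male parent. The most variable was a cut site downstream of Hoxc12 (position 102770238, SD 16.2), with 43.1% in the B6 female, 40% in the B6 male, 23.8% in the DBA female, 37.5% in the DBA male, 10% in the BXD female, 12.3% in the BXD male, 11.8% in the DXB female and 0% of 16 reads in the DXB male. All 4 parents were above all 4 F1 mice at this CG, which was chosen for its spread and was not tested. Its counting SD was 8.29. The cut site in the Hoxc9 exon (position 102812170) showed the more usual pattern, with 32.3% in the B6 male and 48.0% in the DBA male against 8.57 to 12.6% in the other mice. The single CG inside a fragment was that of the Hoxb1 UTR described above (SD 13.8, counting SD 8.22).

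The strains were compared first between parents of the same sex, where each side is 1 mouse. A CG was called if it had 10 reads in both, if each level lay outside the exact 95% binomial interval of the other and if they differed by more than 50 points. By this rule 0 of 1923 Hox CGs were called between the female parents, where 0.549% of all 887174 CGs were called. Between the male parents 0 of 825 were called, against 0.423% of 323010. Fisher's exact test at an adjusted p under 0.05, of any size, called 10 Hox CGs in females (0.520%, against 1.42% of all CGs) and 2 in males (0.242%, against 0.958%). Inside fragments it called 5 of 1544 (0.324%, against 1.49% of all such CGs) and 2 of 647 (0.309%, against 1.11%). In the libraries with 100-base reads, 3 of 1307 Hox CGs inside fragments were at 50% or above, against 39.3% of all CGs measured in the same way. A difference above 50 points needs a level above 50% in 1 of the mice. Few Hox CGs were thus open to a call by the first rule, and the share over all CGs is not a like background for it.

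The library labelled B6 male went against its label at HoxA. Of the reads sorted by a SNP, its cytosine calls within HoxA were 0 on B6 reads and 859 on DBA reads, and 76.7% lay on DBA reads within 1 Mb of the cluster. In HoxB, HoxC and HoxD the share was 1.09, 1.38 and 0%. In the B6 female it was at most 0.190% in each cluster. By its SNPs it was thus not a B6 library in HoxA. Without HoxA 0 of 617 Hox CGs were called between the male parents.

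With a minimum of 5 reads the rule called 4 of 2551 Hox CGs between the female parents (0.681% of all CGs) and 2 of 1238 between the male parents (0.682%). With the strands of a CG added it called 0 of 1888 (0.55%) and 1 of 840 (0.43%). With a difference above 30 points in place of 50, 12 Hox CGs passed between the female parents (1.60% of all CGs did) and 2 between the male parents (1.54% of all). The CGs over 30 points were looked at after the 50-point rule had called none, and the 2 of the male parents, in Hoxa2 and Hoxa3, both lay in HoxA. A single position passed in both pairs of parents, an intron CG of Hoxa3 (chromosome 6, position 52135440). By its SNPs the library labelled B6 male was not B6 in HoxA, so the male pair cannot repeat a strain difference there. The levels below are those of this CG. The Hoxa3 CG was at 0% of 14 reads in the B6 female and 36.4% of 11 reads in the DBA female. It was at 10% of 10 reads in the library labelled B6 male and 51.4% of 35 reads in the DBA male, and the BXD male had 14.6%. Another was the CG in the promoter of Hoxc10 at position 102797039, with 20.5% of 78 reads in the B6 female and 52.4% of 105 in the DBA female, while the B6 male had 19.4% and the BXD male 36.4%. The remaining 10 of the female set were the Hoxb1 UTR CG and CGs of Hoxa3, Hoxa6, Hoxa11, Hoxb7, Hoxc10, Hoxc12, Hoxd11 and Hoxd12, and 3 of the 12 were lower in DBA.

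All 8 mice were then fitted with limma on percent levels, with the number of DBA chromosome copies (0 in B6, 1 in F1 mice, 2 in DBA) and sex as terms. Copies were set by label, so the library labelled B6 male entered with 0 copies in HoxA too, where by its SNPs it was not B6. This concerns the 116 HoxA CGs of the 407 and the HoxA members, where the strain term is not a clean contrast of B6 and DBA. For strain 0 of 407 Hox CGs had an adjusted p under 0.05 (0.132% of all CGs did), with 27 under 0.05 unadjusted (6.63%, against 6.01% of all CGs) and a smallest adjusted p of 0.531. For sex 0 of 407 passed (0.0514% of all), with 25 unadjusted (6.14%, against 5.14%) and a smallest adjusted p of 0.351. A quasi-binomial model of the counts also called 0 for each (0.234 and 0.354% of all CGs), with 20 unadjusted for strain (4.91%, against 5.39% of all CGs) and 16 for sex (3.93%, against 5.14%). Of the 28 members with 5 CGs, limma called 0 for strain (0.481% of all genes) and 0 for sex (1.02% of all genes). Unadjusted, 0 members were under 0.05 for strain (5.53% of all genes were) and 1 for sex (3.57%, against 5.58% of all genes). That member was Hoxc10, with a difference of females minus males of -3.83 points (95% interval -7.01 to -0.651, limma adjusted p = 0.683). It was -1.50 points (-2.71 to -0.299) without cut-site CGs, and without the library labelled B6 male -3.16 (-6.75 to 0.429) over all CGs and -1.78 (-3.17 to -0.401) inside fragments. The unadjusted number of members for sex depended on the mice fitted. It was higher without both male parents or without the BXD male, and lower in some other fits. At single CGs the intervals were wide, and that of strain lay within 10 points of 0 at 201 of 407 Hox CGs.

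Outside HoxA the intervals show how large a strain difference of a member could be. In HoxA they compare mice by label, and by its SNPs the library labelled B6 male was not B6 there. Over all CGs the estimate of DBA minus B6 ran from -1.87 points in Hoxd13 to 3.97 in Hoxa4, and the 95% interval lay within 10 points of 0 in 27 of 28 members. For the sexes all 28 lay within 10 points. Without the library labelled B6 male these counts were 20 and 27. Then 0 members were called for strain (0.203% of all genes were), and the estimates ran from -2.99 to 6.96 with a median of 2.08, against 0.146 with it.

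Inside fragments DBA was estimated higher in 24 of 26 members, with a median of 0.903 points against 0.127 over all genes measured this way. The share of all genes estimated higher in DBA is not given here. None of the 26 passed in limma (1.08% of all genes did), with 4 unadjusted (15.4%, against 9.05% of all genes, smallest adjusted p 0.246). The largest estimate was that of Hoxa4, 5.12 points (-2.47 to 12.7), followed by Hoxa3 at 3.13 ± 1.10 (SE) and Hoxa13 at 2.52 ± 0.70. In Hoxa4 the F1 mean (9.14%) lay below both the B6 mean (11.6%) and the DBA mean (16.7%). So did that of Hoxa3 (6.29%, against 6.42 and 9.55%), while that of Hoxa13 lay between them (4.19%, against 3.18 and 5.70%). These B6 means include the library labelled B6 male, which by its SNPs was not B6 in HoxA. The B6 female alone had 11.9% in Hoxa4, 6.81% in Hoxa3 and 3.11% in Hoxa13. Hoxd9 and Hoxb6 were the members with estimates below 0 (-2.39 and -0.0508). The windows of these members share CGs and all of them come from the same 8 livers, so the count of 24 is a description. Without the library labelled B6 male as well, an alternative added after seeing the data, 23 of 26 estimates were above 0 (median 0.948, against 0.00956 over all genes) and 0 passed (0.475% of all genes did), with 4 unadjusted (15.4%, against 8.56%, smallest adjusted p 0.270). In that fit B6 was 1 mouse, so no spread among B6 mice entered its intervals and SE. Hoxa4 then had 8.09 points (-1.03 to 17.2), Hoxa3 4.45 ± 1.13 and Hoxa13 3.10 ± 0.836, and Hoxd9, Hoxb4 and Hoxd4 were below 0. Between the parents, the mean of Hox CGs inside fragments was 5.02% in the B6 female and 6.04% in the DBA female (1544 CGs), and 3.79% in the library labelled B6 male and 4.98% in the DBA male (647 CGs).

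**Figure D5:**
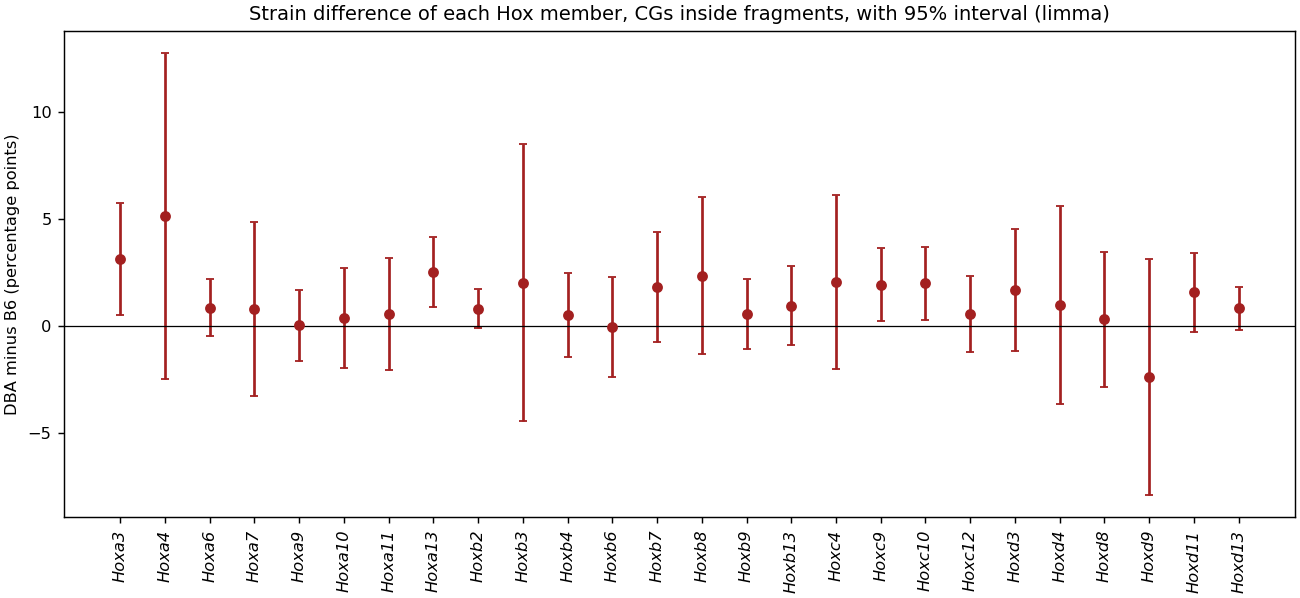
Estimated difference DBA minus B6 in percentage points (limma) for each of the 26 members with at least 5 CGs inside fragments, with 95% intervals. Of the 26 estimates 24 are above 0, the largest in Hoxa4 (5.12), and none passed adjustment over all genes. In HoxA the library labelled B6 male, counted here as B6, was not B6 by its SNPs.

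Within F1 livers, reads with a SNP let the chromosomes of both strains be read side by side, but few lay at Hox genes. Each F1 mouse had 10 to 15 Hox CGs with 10 reads on each chromosome. None of these CGs lay in HoxB, and in the BXD male none lay in HoxA either. The DBA chromosome minus the B6 chromosome averaged -1.94 points in the BXD female, -1.01 in the BXD male, -0.549 in the DXB female and 0.289 in the DXB male. The sign was not the same in all 4, and no single CG differed by more than 16.7 points.

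Genes that work with the Hox clusters had other levels in the same libraries. The following medians are over genes with at least 5 CGs inside fragments in the libraries with 100-base reads, where the 35 measured Hox members had 4.22% and 30 of them were under 10%, against 19.5% over 14063 protein-coding genes, of which 36.5% were under 10%. The DNA-binding cofactors of Hox proteins had 37.3% (8 genes, 1 under 10%), with Pbx3 (2.18%) and Pknox1 (15.9%) the lowest and Pbx2 at 53.6%. Polycomb genes, which keep Hox genes silent, had 12.7% (15 genes, 7 under 10%), from Eed (0.234%) and Suz12 (0.294%) to Ezh1 (34.0%) and Jarid2 (37.9%). Trithorax genes, which keep Hox genes active, had 35.5% (6 genes, 1 under 10%), with Rbbp5 (2.61%) and Wdr5 (77.8%) at the ends.

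Retinoic acid turns anterior Hox genes on in the embryo, and the genes of its receptors and enzymes had a median of 16.8% (9 genes, 3 under 10%), from Rxrb (1.39%) to Cyp26c1 (62.8%). The ParaHox and Cdx genes, relatives of the Hox genes that lie elsewhere, had 6.98% (6 genes, 4 under 10%), with Gsx1 (2.43%) the lowest and Cdx1 (23.7%) the highest. The list nearest to the Hox members was that of other homeobox regulators of development, at 3.50% (29 genes, 26 under 10%), with Msx1 at 1.73% and Pax2 (20.9%) and Pax3 (23.8%) the highest. RNA genes inside the clusters had a median of 5.33% (6 genes, 5 under 10%), from Mir196a-2 (1.98%) to Mir196a-1 (10.2%). Their windows can share CGs with those of Hox members, so this list is not independent of them. Mir615, for instance, had 7.44% over 5 CGs, the same value as the 5 CGs nearest to Hoxc5. Genes at the borders of the clusters were divided, with a median of 7.52% (7 genes, 4 under 10%). Lnp (0.156%) and Mtx2 (0.237%) beside HoxD were the lowest, and Skap1 (70.8%) and Ttll6 (74.6%) beside HoxB the highest, next to a cluster whose mean inside fragments was 5.24%.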

How the data were processed

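The authors cut liver DNA with MspI, aligned reads to mm9 with BS Seeker, kept unique alignments and sorted reads with a SNP to the B6 or DBA chromosome. The authors deposited raw counts of methylated and unmethylated reads for each cytosine and class of reads, and the methylation level as a fraction. How reads were trimmed and duplicates handled was not given in the sources used here. Their 4 tables of their own comparisons (levels, differences and p-values) were not used.

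Counts were added over read classes. With 10 reads a level has steps of 10 points, and intervals cover counting error only. A promoter was 1000 bases before to 500 after a start, and genes needed 5 CGs. Parents were compared by exact 95% binomial intervals, and all mice with limma 3.58.1 in R 4.3.3 (trend, Benjamini-Hochberg over all CGs or genes). All else ran in Python 3.11.15 (pandas 2.3.3, numpy 2.4.6, pysam 0.24.0, scipy 1.17.1, matplotlib 3.10.9). The tests were checked on simulated counts, where limma recovered only part of the changed CGs.

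The members, gene lists and tests were chosen with earlier results of these data known. The genes named were, in each cluster, the 3 highest and 3 lowest members with 5 shared CGs and the most variable. The 10 CGs with the largest SD and, in other lists, up to 2 genes at each end were named too. Any CG or member called in the main comparisons was to be named, and there was none. CGs called by Fisher's test, with 5 reads or with strands added are not named as such. Other members, the methylated runs and CGs past 30 points were named after their values were seen. Alternatives covered the minimum of reads, gene bodies alone, pooled reads, each mouse's own CGs, added strands, other models and leaving out each mouse. Added after seeing the data were leaving out cut sites, both male parents, or cut sites together with the library labelled B6 male, and using the 3 libraries with 100-base reads. Values of some listed genes are left out here.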

Additional observations from a re-analysis of the deposited data

Results flagged for a closer look

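Of 62 sets of 8 values checked for a mouse far from the rest (Dixon's criterion, which chance meets in about 1 of 20 sets), 5 had such a mouse, all inside fragments. The DBA female was high in Hoxa3 (11.1%, against 5.33 to 8.03% in the other mice), and the DXB female in Hoxb6 (5.18%, against 0.933 to 2.83%). The DBA male was high in Hoxb13 (4.97%, next 3.23%), Hoxc9 (5.88%, next 3.91%) and Hoxd11 (4.38%, next 2.56%). In each of these sets the mouse that stands apart was the highest.

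The sorting of reads by SNP to B6 or DBA was used in no comparison of mice, where sorted and unsorted reads were summed. In the library labelled B6 male 100.0% of such calls within HoxA lay on DBA reads, and 22.3% of those within 1 Mb of HoxD, although none of those inside HoxD did. Over its autosomes the share was 16.1%, against 0.338% in the B6 female.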

How the results depend on the processing

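Of the values that answer a comparison, 172 kept their direction and size under the alternatives listed above, 12 moved, 3 turned and 5 had more calls. Under those chosen after seeing the data 26 kept theirs and 12 moved. With 5 reads the rule for parents called 4 Hox CGs in females and 2 in males, with a difference above 30 points 12 and 2, and with strands added 1 in males, each a smaller share than over all CGs. With 20 reads the posterior minus anterior difference turned in HoxA (0.745) and HoxB (1.48) and was -5.27 in HoxD, and with pooled reads it turned in HoxB (0.699). The cause was not tested. With 5 reads it was -3.48 in HoxA, -3.13 in HoxB and -3.35 in HoxD, and with each mouse's own CGs -4.09, -2.73 and -1.81. Without cut sites it was -4.11 in HoxD, and in the libraries with 100-base reads -4.04 in HoxA and -1.74 in HoxD. The level of HoxB was 6.50% with 20 reads, 10.02% with 5 and 9.14% with own CGs, and that of HoxD 6.51% with own CGs. Without cut sites HoxA, HoxB, HoxC and HoxD had 4.66, 4.36, 4.44 and 4.15%, and in the libraries with 100-base reads 6.31, 5.24, 4.21 and 4.48%. The median SD among mice was 2.19 without cut sites and 10.02 over the 46 CGs at 20 to 80%. Leaving out each mouse gave 8.32 to 9.02% in HoxA, 7.37 to 7.77% in HoxB, 8.96 to 9.85% in HoxC and 7.87 to 8.54% in HoxD. The posterior minus anterior differences were then -1.74 to -1.30, -0.858 to -0.322, -3.91 to -2.63 and -7.50 to -7.01 in the same order. The median SD was 3.15 to 3.52. For strain and sex, limma and the quasi-binomial model called no Hox CG in 17 settings, and limma no member in 20. Over these settings 0 to 452 of all CGs were called for strain and 0 to 626 for sex. Of all genes 1 to 75 were called for strain and 30 to 154 for sex. Where a setting called no CG of the genome, none could be called in Hox CGs, and its 0 says nothing about the clusters. No paired analysis was possible because the numbers of the mice only stand for sex, which is a term of the model.

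Coverage is lowest in the DBA female (median 33 reads at Hox CGs), so its single CGs are the least precise.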
